A study of Homo sapiens with 6 samples.

Results

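The D cyclins, their kinase partners CDK4 and CDK6, the CDK inhibitors CDKN1A, CDKN1B, CDKN2C and CDKN2D, and RB1 were followed in TF-1 cells with and without PRL-3, the tyrosine phosphatase encoded by PTP4A3. The members were chosen by gene symbol, and 9 of the 10 had a probe set, 1 each, among 18377 genes measured. CDKN2C had no named probe set and was not analysed here. TF-1 is a human erythroleukaemia line that grows only with a cytokine. The control group of 3 arrays came from cells with a control vector, labelled pEGFP, and the other group of 3 arrays from cells with human PRL-3. The medium of both groups was RPMI with 10% FBS and 5 ng/ml IL-3 (interleukin-3), and no other treatment, time or clone was given in the labels. Control arrays carry the numbers 1 to 3 and PRL-3 arrays the numbers 4 to 6. The labels do not state that the arrays of a group are separate cultures, so every p-value here reflects the spread between arrays alone, and that spread may be technical.

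In G1, D cyclins are made in response to growth factors and bind CDK4 or CDK6, and the active complexes phosphorylate the retinoblastoma protein RB1, which then releases E2F factors that switch on genes for S phase. The INK4 proteins, such as those of CDKN2C and CDKN2D, bind CDK4 and CDK6 and block them, while p21 (CDKN1A) and p27 (CDKN1B) inhibit CDK2 complexes and also sit on cyclin D complexes. In blood progenitors, CDK6 has been tied to proliferation and to a block of differentiation. The arrays measured RNA, so neither protein nor phosphorylation of these regulators is described here.

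CDK6 was the only member that passed the test, and it fell by 0.62 on the log2 scale with PRL-3, to 1.53-fold lower intensity. The other 8 members, which include its paralog CDK4, all measured D cyclins, the inhibitors and RB1, did not pass. Of the 9 members 0 rose and 1 fell in limma at adjusted p 0.05, where 7.69% of all genes passed, 4.58% higher and 3.11% lower. In an unequal-variance test 0 of 9 passed, where 0.0599% of all genes did. The median difference was -0.00037 over the members and -0.015 over all genes. The groups did not overlap in 3 members, CDK6, CDK4 and CDKN1B, and the same 3 had an unadjusted p under 0.05 in limma. Over all genes the groups did not overlap in 24.3% and 20.2% had such a p, so 3 of 9 lies near the background.

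The stretches before the transcription starts of these 3 genes are shown, because they are the members whose arrays separated by group. Each holds the 250 bases upstream of a RefSeq start (GRCh38.p14), on the strand of the gene, and lies outside the transcribed part for that start. Capitals mark GGGCGG, the GC box bound by SP1 family factors, or its complement CCGCCC, and CACGTG, the E-box bound by MYC with MAX. They are CDK6 at chr7:92836574-92836823 (minus strand), CDK4 at chr12:57752311-57752560 (minus strand) and CDKN1B at chr12:12717118-12717367 (plus strand).
CDK6: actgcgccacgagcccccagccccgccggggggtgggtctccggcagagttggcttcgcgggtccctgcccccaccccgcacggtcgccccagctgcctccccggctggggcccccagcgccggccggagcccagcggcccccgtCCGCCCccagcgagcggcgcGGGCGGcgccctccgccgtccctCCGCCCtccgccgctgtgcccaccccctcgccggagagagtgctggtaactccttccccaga
CDK4: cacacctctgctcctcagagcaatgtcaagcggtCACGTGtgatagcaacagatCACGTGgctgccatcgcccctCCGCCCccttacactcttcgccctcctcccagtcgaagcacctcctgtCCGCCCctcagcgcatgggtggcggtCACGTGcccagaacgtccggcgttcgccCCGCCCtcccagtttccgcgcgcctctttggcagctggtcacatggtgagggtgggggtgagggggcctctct
CDKN1B: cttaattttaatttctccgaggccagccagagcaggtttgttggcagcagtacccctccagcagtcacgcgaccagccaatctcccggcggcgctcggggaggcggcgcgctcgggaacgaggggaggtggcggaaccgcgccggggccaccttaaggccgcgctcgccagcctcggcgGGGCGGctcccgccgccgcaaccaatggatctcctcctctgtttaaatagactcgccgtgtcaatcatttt
The CDK6 stretch held 3 GC boxes and 0 E-boxes and was 80.0% G and C, against a median of 58.0% over all 35116 windows of the table. A second CDK6 start had neither motif in its window. The CDK4 stretch held 3 GC boxes and 3 E-boxes, and that of CDKN1B held 1 GC box and 0 E-boxes. On either strand, a GC box lay in 42.6% of all windows and an E-box in 6.34%. Windows were listed for 7 members (10 in all), of which 7 windows held a GC box and 1, that of CDK4, an E-box. CCND1 and CCND2 were not in the table. The E2F words TTTCCCGC, TTTGGCGC, TTTGCCGC and TTTCGCGC were found in 0 of the 10 windows and in 2.79% of all windows. Only the listed starts were searched, and CCND3 and CDK6 had more than 1 window each. RB1 had a single window, chr13:48476200-48476449, with the lowest G and C content of the member windows (36.8%). Other starts of RB1 were not searched, so this window need not stand for the main RB1 promoter. That holds for its G and C content and for its lack of the motifs. These matches are descriptions of letters, not of bound sites.

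CDK6 read 9.49, 9.38 and 9.25 on control arrays 1 to 3 and 8.69, 8.77 and 8.80 on PRL-3 arrays 4 to 6 (log2 intensity). Every PRL-3 array was thus below every control array, and the gap of 0.448 between the groups was wider than the range within either (0.234 in control and 0.113 with PRL-3). The means were 9.37 ± 0.117 and 8.76 ± 0.0579 (SD, n = 3 each), and the difference of -0.62 ± 0.08 (log2, SE) had a 95% interval from -0.80 to -0.43 and adjusted p = 0.00366 in limma. A two-sided exact permutation test on these values had p = 0.1, and with 3 arrays a group no smaller p is possible. Of all 18377 genes, 113 (0.615%) had a larger fall. With each array left out in turn CDK6 stayed past the threshold, at -0.68 to -0.56 with adjusted p of 0.0034 to 0.028 in limma, and in the unequal-variance test its adjusted p was 0.152.

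CDK4, which shares the cyclin D partners and the main substrate of CDK6, read 10.75, 10.91 and 10.81 in control and 10.68, 10.57 and 10.60 in PRL-3 arrays. The groups did not overlap, but the gap was 0.0765 between control 1 and PRL-3 4, close to the SD of 0.0811 in the control group. The difference of -0.21 ± 0.07 (log2, SE) had adjusted p = 0.143 in limma, with a 95% interval from -0.38 to -0.042. With array weights CDK4 passed (adjusted p = 0.0132, limma), as did 24.1% of all genes. It also passed in a fit that took up the leading axis of spread within the groups (adjusted p = 0.0469, limma), as did 20.6% of all genes.

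The paralogs were also set against each other on the same array, a comparison chosen after their values were seen. The log2 intensity of CDK6 minus that of CDK4 was -1.27, -1.53 and -1.55 in control and -1.99, -1.80 and -1.79 in PRL-3 arrays. This ratio was lower by 0.41 with PRL-3, with no overlap of the groups and p = 0.1 in an exact two-sided permutation test, its smallest possible value. Since the pair was picked for its unequal differences, these values describe them and are no separate test, and they say nothing of which kinase is more abundant.

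**Figure D1:**
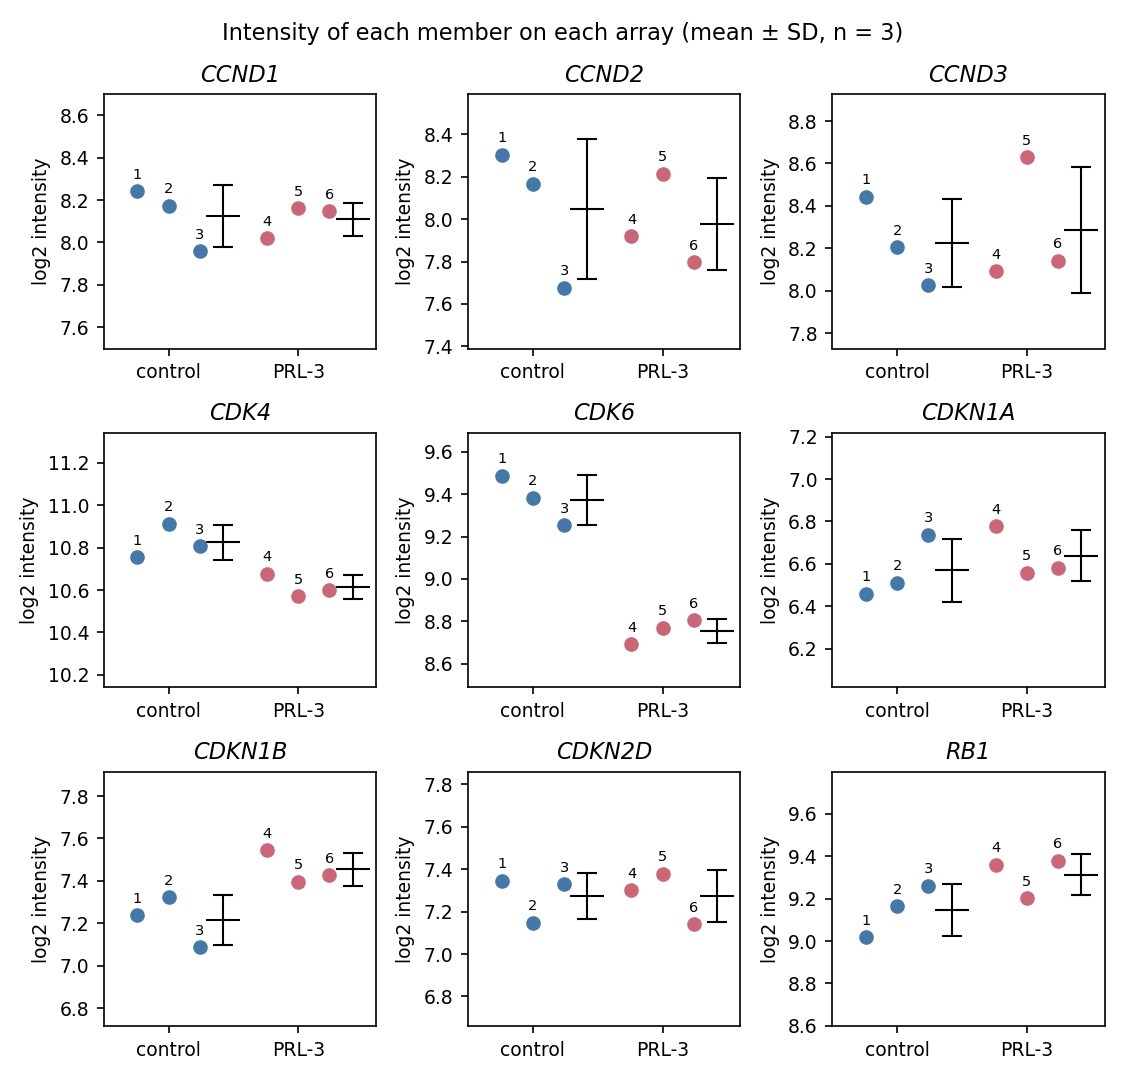
Log2 intensity of the 9 measured members on each of the 6 arrays (points, with array numbers; blue control, red PRL-3), with mean and SD of 3 arrays beside them; every panel spans 1.2 log2 units. CDK6 is the panel with the clear gap, from 9.25 for the lowest control array to 8.80 for the highest PRL-3 array, while the D cyclins spread within groups.

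None of the 3 D cyclins passed in limma at adjusted p 0.05, and none had an unadjusted p under 0.05. CCND1, the D cyclin of most epithelial tissues, read 8.24, 8.17 and 7.96 in control and 8.02, 8.16 and 8.15 in PRL-3 arrays. Its difference was -0.015 ± 0.0909 (log2, SE; adjusted p = 0.96, limma) with a 95% interval from -0.22 to 0.19. The PRL-3 values lay inside the control range. CCND2, a D cyclin prominent in blood cells, read 8.30, 8.17 and 7.68 in control and 7.92, 8.21 and 7.80 in PRL-3 arrays. It too overlapped fully, and its difference of -0.072 ± 0.17 (log2, SE; adjusted p = 0.888, limma) had a wide interval, from -0.46 to 0.32. CCND3, which serves erythroid and lymphoid precursors, read 8.44, 8.21 and 8.03 in control and 8.09, 8.63 and 8.14 in PRL-3 arrays, a difference of 0.063 ± 0.159 (log2, SE; adjusted p = 0.895, limma) with an interval from -0.30 to 0.43. Array 5 alone was above the control range. Differences of CCND2 or CCND3 within these intervals were not excluded with 3 arrays a group.

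The D cyclins had an order of arrays in common. In each of the 3, control 1 was the highest control array and PRL-3 5 the highest PRL-3 array, and control 3 was the lowest control array. CDKN2D had the same highest arrays, while CDK4, CDKN1A and RB1 were lowest on both control 1 and PRL-3 5. Over all genes 23.7% were highest and 20.9% lowest on these 2 arrays. This order followed the leading axis of spread within the groups, which held 0.639 of the within-group variance of all genes and had control 1 and PRL-3 5 at one end and control 3 at the other. The part of this axis in the D cyclin values was not tested. Without control 1 and PRL-3 5 together, a fit added after the data had been seen, CCND1, CCND2 and CCND3 differed by 0.017, -0.064 and 0.0010, and CDK6 by -0.57 with adjusted p = 0.0141 in limma.

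Among the inhibitors, CDKN1B had the largest difference. This gene encodes p27, which accumulates in cells that leave the cycle. It read 7.24, 7.32 and 7.09 in control and 7.54, 7.40 and 7.43 in PRL-3 arrays, with every PRL-3 array above the controls by a gap of 0.0733 between PRL-3 5 and control 2. The difference of 0.24 ± 0.0837 (log2, SE), 1.18-fold, did not pass in limma on all arrays (adjusted p = 0.145, 95% interval from 0.047 to 0.43). It passed only in the fit with the leading axis of within-group spread (adjusted p = 0.0488, limma), where 20.6% of all genes passed. Its alternatives ranged from 0.18 to 0.29.

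CDKN1A, which encodes p21, the inhibitor induced by p53, read 6.46, 6.51 and 6.74 in control and 6.78, 6.56 and 6.58 in PRL-3 arrays. The groups overlapped, and the difference was 0.069 ± 0.098 (log2, SE; adjusted p = 0.786, limma), with a 95% interval from -0.16 to 0.29. CDKN2D, the INK4 inhibitor p19, was the most even member. Its arrays read 7.35, 7.15 and 7.33 in control and 7.30, 7.38 and 7.14 with PRL-3, and the difference of -0.00037 ± 0.0897 (log2, SE) had adjusted p = 0.999 in limma, with an interval from -0.21 to 0.21.

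RB1, the substrate at the end of the pathway, read 9.02, 9.16 and 9.26 in control and 9.36, 9.20 and 9.38 in PRL-3 arrays. PRL-3 5 lay within the control range and the other 2 above it. The difference of 0.17 ± 0.0873 (log2, SE) did not pass in limma (adjusted p = 0.354, 95% interval from -0.035 to 0.37). It passed with array weights (0.19, adjusted p = 0.0444, limma), as did 24.1% of all genes.

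**Figure D2:**
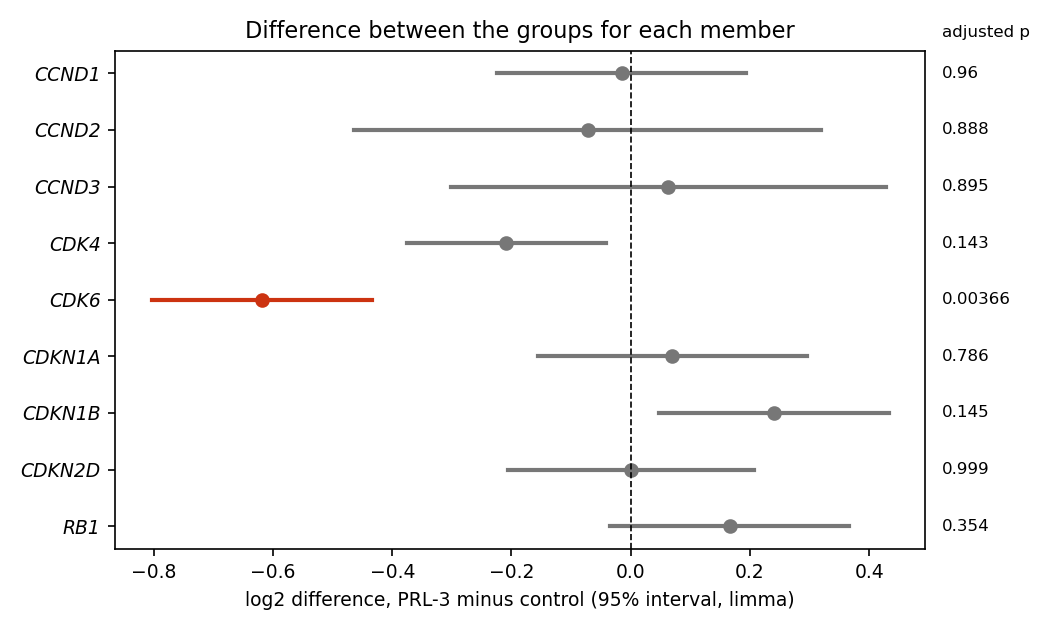
Log2 difference of each member, PRL-3 minus control (points), with its 95% interval from limma (lines) and adjusted p at the right; red marks adjusted p below 0.05. CDK6, at -0.62, is the only red one, and the intervals of CCND2 and CCND3 are the widest.

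**Figure D3:**
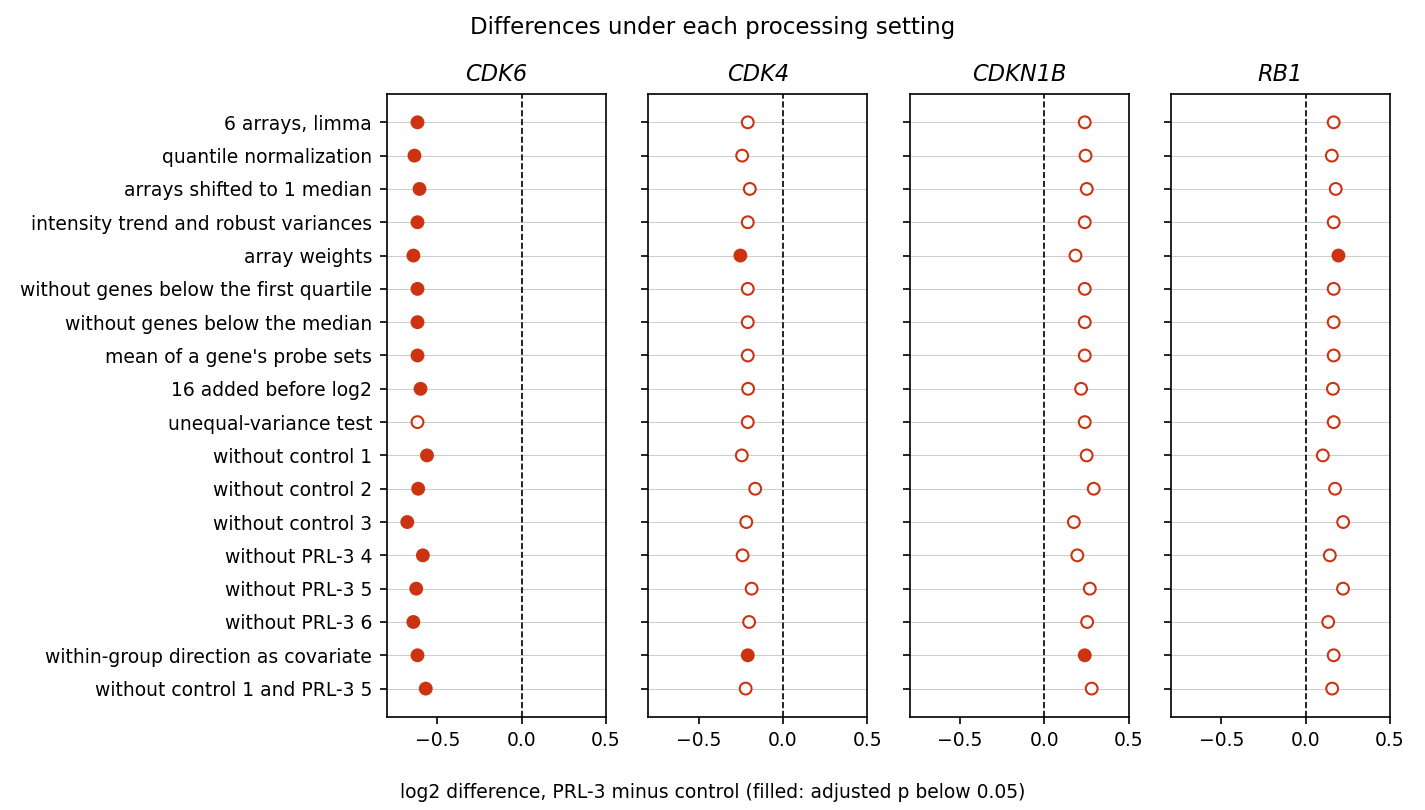
Log2 difference of CDK6, CDK4, CDKN1B and RB1 (PRL-3 minus control) with 6 arrays in limma and under each of 17 alternatives, filled where adjusted p is below 0.05. CDK6 is filled in all but the unequal-variance test, and the others in 1 or 2 alternatives each.

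The other inhibitors and CDK-binding proteins of the list held 1 gene of 10 that rose and 0 that fell (4.58% and 3.11% of all genes). It was CDKN3, a phosphatase that acts on CDK2 and CDK1, at 0.53 ± 0.105 (log2, SE; adjusted p = 0.0216, limma), with 0 passing without control 2, PRL-3 4 or PRL-3 6. CDKN2A and CDKN2B, the other INK4 genes, and CDKN1C, the third of the p21 family, were named after their values were seen. They differed by -0.098, 0.16 and 0.054 on the log2 scale, with adjusted p of 0.801, 0.487 and 0.749 in limma.

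Downstream of the cyclin D kinases stand the RB1 relatives, the E2F factors and the DREAM complex, which represses cell cycle genes outside the cycle. Of 20 such genes, with a list median of -0.094, 4 fell and 0 rose (3.11% and 4.58% of all genes). Array weights called 7 lower, as did the fit with the leading axis of within-group spread, where 24.1% and 20.6% of all genes passed. The unequal-variance test called 0. E2F8, an E2F that represses transcription, fell by 0.55 ± 0.0833 (log2, SE; adjusted p = 0.00697, limma), from 8.37, 8.47 and 8.22 in control to 7.85, 7.83 and 7.73 in PRL-3 arrays. TFDP1, the dimer partner of the E2Fs, fell by 0.37, DYRK1A, a kinase that acts on LIN52 to assemble DREAM and on cyclin D1, fell by 0.33, and RBBP4, an RB1-binding histone chaperone, fell by 0.31, with adjusted p of 0.0299, 0.0242 and 0.0241 in limma. These 3 were less firm than E2F8. In 4 of the 6 fits without 1 array (without control 1, control 2, PRL-3 4 or PRL-3 6) only 1 gene of the list passed, without PRL-3 5 it was 2, and without control 3 it was 5. Without control 1 and PRL-3 5 together it was 1. RB1's relatives RBL1 and RBL2 differed by -0.12 and -0.12 (adjusted p = 0.453 and 0.373, limma), and E2F1, the classic factor released by RB1, by 0.046 (adjusted p = 0.802, limma).

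Of 27 measured E2F target genes of the G1 to S transition, 0 passed in either direction in limma, 5 had an unadjusted p under 0.05 (20.2% of all genes did), and 0 passed in the unequal-variance test. The median of this list was -0.025, against -0.015 for all genes. CCNE1 and CCNE2, the E cyclins that take over from the D cyclins, differed by -0.12 and 0.26 (adjusted p = 0.475 and 0.312), CCNA2, the S phase cyclin, by 0.25 (adjusted p = 0.192), all in limma. CDK2, the kinase of the E and A cyclins, differed by 0.14 (adjusted p = 0.585, limma). With array weights, where 24.1% of all genes passed, 5 of these target genes were higher and 4 lower. In the fit with the leading axis of within-group spread, where 20.6% of all genes passed, 3 were higher and 3 lower. Without control 3 there was 1 that rose.

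Among 17 other cyclins and CDKs 2 rose and 0 fell, with a median of 0.25, and 8 had an unadjusted p under 0.05, against 20.2% of all genes. Array weights called 9 higher and 1 lower, as did the fit with the leading axis of within-group spread, where 24.1% and 20.6% of all genes passed. CDK1, the mitotic kinase, read 7.59, 7.58 and 7.60 in control and 8.03, 8.07 and 8.20 in PRL-3 arrays and rose by 0.51 ± 0.0702 (log2, SE; adjusted p = 0.00454, limma). CCNH, the cyclin of the CDK-activating kinase that phosphorylates CDK4, CDK6, CDK2 and CDK1, rose by 0.38 ± 0.0657 (log2, SE; adjusted p = 0.0121, limma). The other subunits of that kinase, CDK7 and MNAT1, named after their values were seen, differed by 0.34 and 0.50 and did not pass (adjusted p = 0.0944 and 0.078, limma). Without control 3 the list had 5 higher and 1 lower, without PRL-3 5 it had 4 higher, and without PRL-3 4 or PRL-3 6 it had 1. Of 25 mitotic genes 3 rose and 0 fell (4.58% and 3.11% of all genes). Their median was 0.24, against -0.015 for all genes, and 23 of the differences were above 0. At an unadjusted p under 0.05 there were 14 of 25, against 20.2% of all genes. Array weights called 14 higher and the fit with the leading axis of within-group spread 13, where 24.1% and 20.6% of all genes passed. Arrays shifted to 1 median gave 5, as did leaving out genes below the first quartile of intensity. Quantile normalization, an intensity trend with robust variances, and 16 added before log2 gave 2 each. The unequal-variance test gave 0. NEK2, a centrosome kinase, rose by 0.80, PTTG1, the securin that holds sister chromatids, by 0.95, and KIF20A, a kinesin of cell division, by 0.30 (adjusted p = 0.0028, 0.0419 and 0.0399, limma). The count was 1 without control 2, PRL-3 4 or PRL-3 6, 2 without control 1, 6 without PRL-3 5 and 7 without control 1 and PRL-3 5 together. KIF20A lost its call whichever array was left out (adjusted p = 0.069 to 0.146, limma). PTTG1, which read 7.66, 7.98 and 8.56 in control, kept its call in 2 of these fits (adjusted p up to 0.165, limma). NEK2 kept its call in all 6.

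Of 31 genes whose proteins build, modify or destroy cyclin D, p21 and p27, 4 rose, 3 fell and 24 did not pass. Over all genes 4.58% rose and 3.11% fell. The list median was -0.0069, and 12 of 31 had an unadjusted p under 0.05 in limma, against 20.2% of all genes. Array weights called 7 higher and 10 lower, where 24.1% of all genes passed. The fit with the leading axis of within-group spread called 5 and 10, where 20.6% did, and the unequal-variance test called 0. CRYAB, a small heat shock protein described as a cofactor of the cyclin D1 ligase with FBXO4, rose by 1.90 ± 0.153 (log2, SE; adjusted p = 0.000492, limma), from 5.58, 5.68 and 5.81 to 7.70, 7.22 and 7.85. These control values lay inside the control range of the lymphocyte markers (4.95 to 6.49), which TF-1 should lack, so the control level was not shown to be above background and the difference may understate the change; with 16 added before log2 it was 1.63. PIM1, a kinase that acts on p21 and p27, rose by 0.81, and USP2, a deubiquitinase of cyclin D1, by 0.68 (adjusted p = 0.0199 and 0.00352, limma). CUL4A, the scaffold of a ligase that marks p21, fell by 0.54 (adjusted p = 0.00924, limma). The other genes of this list past the threshold were CKS2, a small CDK-binding protein (0.50), CUL1, the scaffold of SCF ligases (-0.32), and FBXO4 itself (-0.43), all named after their values were seen. SKP2, the SCF subunit that recognises p27, differed by -0.22 (adjusted p = 0.115, limma), and was likewise named after its values were seen. The counts of this list were 4 higher and 4 lower without control 3, and ranged from 2 to 4 higher and from 0 to 1 lower without each of the other arrays, with 2 and 0 without PRL-3 4. With arrays shifted to 1 median 1 was lower. FBXO4 lost its call whichever array was left out (adjusted p = 0.0529 to 0.189, limma). Its PRL-3 values (6.17, 5.83 and 6.07) and those of control 1 and 3 (6.32 and 6.46) also lay inside that lymphocyte marker range. CUL1 kept its call in 1 of the fits without 1 array, and CKS2 in 2 of them. PIM1 lost its call without control 2 or PRL-3 4, and CUL4A without PRL-3 4, while CRYAB and USP2 kept theirs in all 6.

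Of 30 transcription factors and other regulators of the members' RNA, 3 rose and 0 fell (4.58% and 3.11% of all genes). The list median was 0.012, and these 3 genes passed whichever array was left out. LIN28B, which blocks the maturation of let-7 microRNAs, of which CDK6 and CCND2 are described targets, rose by 2.09, from control values of 5.11 to 5.55 that lay in that same range of lymphocyte markers (1.74 with 16 added before log2). JUN, which drives CCND1 in many cells, rose by 0.92, and MYCN by 0.56 (adjusted p = 9.37e-05, 0.00104 and 0.0043, limma). MYC, for which CDK4 is a described target, was named after its values were seen and differed by -0.35 (adjusted p = 0.337, limma). Of 20 measured p53 targets other than CDKN1A, with a median of -0.024, 5 rose and 0 fell (4.58% and 3.11% of all genes). They were the death receptor gene FAS (0.91), PMAIP1 (0.71), TP53INP1 (0.47), GADD45A (0.46) and, named after its value was seen, PLK2 (0.40), with adjusted p of 0.0017 to 0.0158 in limma. Without control 2 the count was 2, without PRL-3 4 or PRL-3 6 it was 4, and in the unequal-variance test it was 0. PLK2 lost its call without control 2, PRL-3 4 or PRL-3 6 (adjusted p up to 0.0858, limma). CDKN1A, at 0.069, did not pass beside these targets. It was the dimmest member, at percentile 42.8 of all genes in control arrays. Its lowest control value, 6.46, lay within that range of lymphocyte markers. Whether a dim signal narrowed its difference was not tested.

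**Figure D4:**
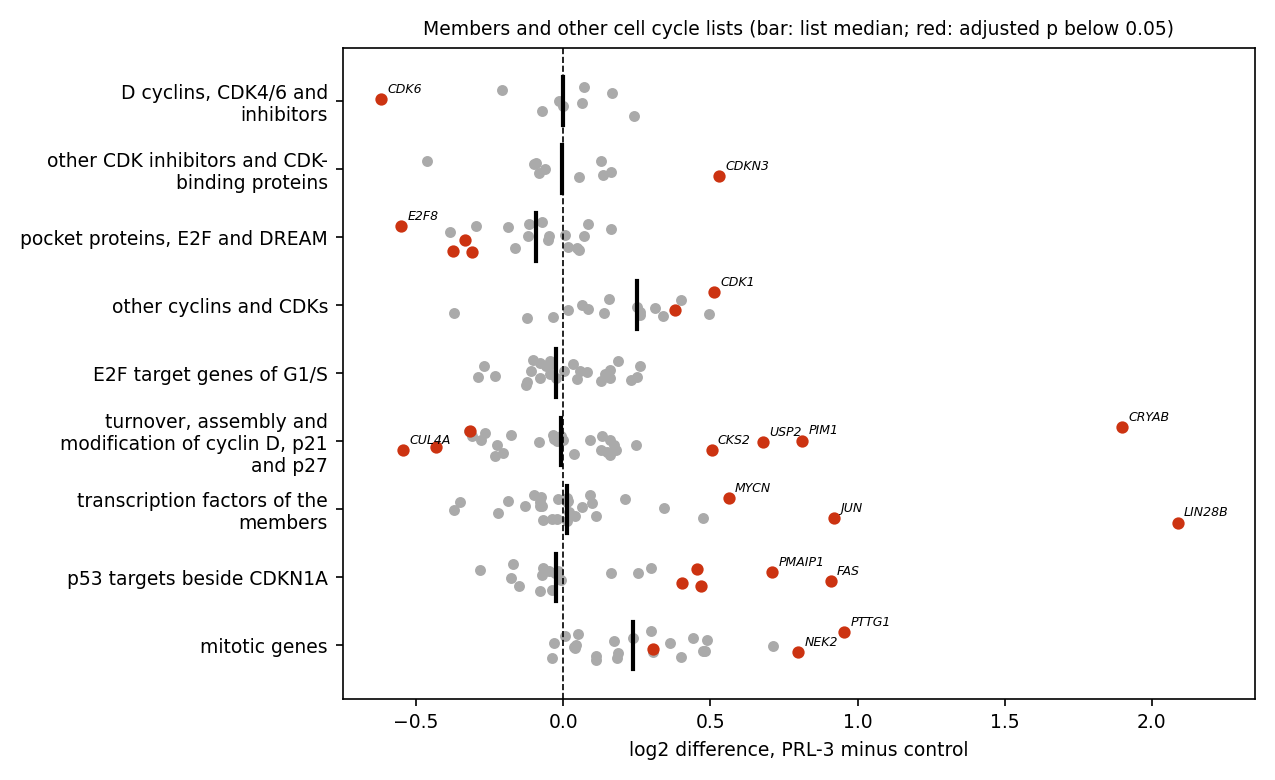
Log2 difference, PRL-3 minus control, of every measured gene in the members' list and 8 other cell cycle lists (points; red for adjusted p below 0.05 in limma), with the list median as a black bar. The medians lie within 0.1 of 0 except for the mitotic genes (0.24) and the other cyclins and CDKs (0.25), and CDK6 is the lowest point of the figure.

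The 3 genes whose 6 array deviations lay closest to those of CDK6 were COA7, STYK1 and SLC9B2, at root mean square distances of 0.0353, 0.0383 and 0.0433 log2 units over the 6 arrays. They fell by 0.58, 0.57 and 0.58. This is a likeness of values and says nothing of shared control.

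Over the whole series, median intensity per array ran from 89.8 to 92.9. PTP4A3 read 7.92 to 8.03 in control and 10.79 to 10.93 in PRL-3 arrays, a 7.33-fold rise in the arrays labelled PRL-3. Of 13 measured TF-1 markers 12 lay above the median intensity of all genes in control arrays, while 9 of 9 lymphocyte, 7 of 9 mature myeloid and 9 of 12 fibroblast, epithelial and endothelial markers lay below it. In these last 3 lists 0 genes passed in limma (0, 0 and 2 at an unadjusted p under 0.05, and 0 in the unequal-variance test). Of the TF-1 markers 9 of 13 had an unadjusted p under 0.05, against 20.2% of all genes. Array weights, with which 24.1% of all genes passed, called 5 higher and 5 lower. In limma on all arrays KIT (1.01) and CSF2RA (0.27) rose and TFRC, the transferrin receptor gene, fell by 0.52; CSF2RA lost its call whichever array was left out (adjusted p = 0.0695 to 0.149, limma). Whether fewer cells carried CDK6 RNA or each cell carried less cannot be told apart in RNA from whole cultures, and the part of cell state in the fall of CDK6 was not tested.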

How the data were processed

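RNA of 3 control and 3 PRL-3 samples of TF-1 was labelled with Nugen kits from 100 ng of total RNA, per the labels' protocols, and measured on a whole-transcript array. The authors deposited linear intensity values for 28869 probe sets on each array. How these were summarised and normalized is not given in the sources used here. The values were positive with close medians and were taken as normalized, so differences are relative to the bulk of genes. No detection call was given. Log2 was taken with no offset. Probe sets with exactly 1 symbol in the platform annotation (19310) were used, the brightest per gene, and 1752 with several symbols and 7807 unnamed ones were left out. The comparison used limma 3.58.1 under R 4.3.3 (no trend, not robust, Benjamini-Hochberg over 18377 genes, threshold 0.05); permutation tests used scipy 1.17.1. On simulated data with 200 changed genes it recovered 50.7%, 94.0% and 98.5% of changes of 0.5, 1 and 2 (log2), with 5 false calls among 167. The simulated noise was independent between genes, whereas 0.639 of the real within-group variance lay on its leading axis. These rates therefore check the code and need not hold for the real arrays. Other normalizations, variance models, filters and left-out arrays made 15 alternatives, and 2 more were added after seeing the data. The members, lists and tests were chosen with earlier results of these data known. Named were all members, up to 4 called genes per list with the largest differences, the 3 nearest to a called member, PTP4A3, and E2F1, CCNE1, CCNE2, CCNA2, CDK2, RBL1 and RBL2. Promoter windows came from RefSeq (GRCh38.p14).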

Additional observations from a re-analysis of the deposited data

How the results depend on the processing

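CDK6 stayed lower in all 17 alternatives (-0.68 to -0.56) and past the threshold in 16; the exception was the unequal-variance test (adjusted p = 0.152), where each gene rests on its own 6 values. CDK4, CDK6, CDKN1A, CDKN1B and RB1 kept their sign in every alternative run; CDKN1A was not tested among genes above the median. The members near 0 changed sign. CCND1 turned to 0.0434 without control 1, 0.00908 without control 2, 0.0298 without PRL-3 4 and 0.0173 without control 1 and PRL-3 5 together. CCND2 turned to 0.0553 without control 1 and 0.0183 without PRL-3 6. CCND3 turned to -0.0452 with array weights, -0.0362 without control 3 and -0.108 without PRL-3 5. CDKN2D turned to 0.0117 with arrays shifted to 1 median, 0.0692 with array weights, 0.0357 without control 1, 0.0269 without control 3 and 0.0655 without PRL-3 6. Outside the members, CDKN2A turned to 0.0429 without control 1. Over the fits without 1 array CCND1 ranged from -0.0983 to 0.0434, CCND2 from -0.258 to 0.0553, CCND3 from -0.108 to 0.172, CDKN2D from -0.0637 to 0.0655 and CDKN2A from -0.213 to 0.0429. None of these passed in limma.

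Array weights called 1 member higher (RB1) and 2 lower (CDK4 and CDK6), with 2122 genes higher and 2303 lower. The fit with the leading axis of within-group spread, an addition made once the data had been seen, called 1 higher (CDKN1B) and 2 lower, with 1976 and 1805 genes; both settings draw on the spread of these same arrays. The unequal-variance test called 0 members, with 7 genes higher and 4 lower, PTP4A3 and TFRC among them. With 1 array left out, 0 members were higher and 1 lower each time, with 388 (without control 2) to 792 genes higher and 178 (without control 2) to 747 lower. No paired analysis was possible because the groups share no replicate numbers. The arrays' number limits the precision.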
